A study of Oncorhynchus mykiss with 6 samples.

Results

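The miRNAs described here are the arms of the miR-221 and miR-222 hairpins in rainbow trout head kidney, where teleost fish form their blood and many of their immune cells. They were chosen by name: every row of the deposited table whose Atlantic salmon (ssa) name carries the family number 221 or 222, whatever the letter or arm. This gave 6 of the 1381 rows, the 5p and 3p arms of miR-221, miR-222a and miR-222b, and all 6 had enough counts to be tested. Small RNA was sequenced from 3 heat-treated fish at 24 °C and 3 control fish at 18 °C, all of them females aged 1 year, with 1 library per fish. The sources used here give neither the strain nor how long the heat lasted. The question is whether these miRNAs differ in abundance, or in the balance of their arms, between the 2 temperatures.

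miR-221 and miR-222 are related hairpin miRNAs that lie next to each other in vertebrate genomes. Their 3p arms share a seed, the short stretch at the 5′ end by which a miRNA pairs with its target mRNAs, so both can act on the same mRNAs, while the 5p arms have different seeds. In human cells the 3p arms repress KIT, the receptor for stem cell factor on blood progenitors and endothelium, and CDKN1B, an inhibitor of the cell cycle. In human blood formation their level falls as red cell precursors mature. Letters a and b mark closely related copies, and reads that match both copies may have been divided among rows, or counted in both, by the authors.

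The heat libraries held 4289895 to 5156793 counts and the control libraries 3753036 to 5063549. The endothelial marker miR-126 summed to 87083 to 101990 CPM in heat libraries and 81201 to 107154 CPM in controls, and the 7 leukocyte rows to 13832 to 17472 and 9590.0 to 17031 CPM (CPM are counts scaled to a common library total with TMM factors). The 8 nephron rows summed to 1763 to 2548 CPM in heat libraries and 2115 to 2993 CPM in controls. The 11 striated muscle rows summed to 1137 to 2326 CPM in heat libraries and 411 to 725 CPM in controls, without overlap. The 14 epithelial rows summed to 405 to 435.3 and 434.5 to 838 CPM, the 2 gonad rows to 2.51 to 20.0 and 12.2 to 87.6 CPM, and the liver row, miR-122, to 24.2 to 74.1 and 5.30 to 81.6 CPM. No row of these lists was at 0 in all libraries. Heat replicate 3 had the highest muscle sum (2326 CPM) and the highest red cell sum (3052 CPM, where no other library exceeded 1604 CPM). The red cell sum is that of the 2 arms of miR-144 alone. Several results are therefore also given without that library.

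Together the 6 arms made up a small part of all counts, which cover annotated and predicted miRNA rows. They took 0.684%, 0.680% and 0.717% of all counts in the 3 heat libraries, against 0.660%, 0.630% and 0.604% in the 3 control libraries. Each heat library lay above each control library, and the means were 0.694% ± 0.0201 in heat and 0.631% ± 0.0283 in control libraries (SD, n = 3 each), a difference of 0.0622 percentage points. The exact binomial 95% interval was 0.709% to 0.725% for the highest library, heat replicate 3, and 0.597% to 0.611% for the lowest, control replicate 3, and it covers counting error only. Single tested rows separated this fully, in either direction, in 12.8% of cases in TMM-scaled CPM. No such share was worked out for sums of rows. No test was made on this sum, which was planned as a description only. Its members were chosen with earlier results of these data known. The summed abundance was 6946 ± 232 CPM in heat libraries and 6304 ± 287 CPM in controls.

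The arms spanned a wide range of levels. The most abundant was ssa-miR-222a-5p, with a mean of 2137 CPM over the 6 libraries (rank 55 of the 1381 rows), followed by ssa-miR-222a-3p with 1997 CPM (rank 56). These neighbours overlapped in range, with the 5p arm ahead in 5 of 6 libraries. Next came ssa-miR-221-5p with 1461 CPM (rank 63), and its highest library (1795 CPM) lay just under the lowest library of miR-222a-3p (1841 CPM). The row ssa-miR-222b-3p had 845 CPM (rank 82). Its range overlapped with that of miR-221-5p over all libraries, though miR-221-5p was higher within each of the 6. The row ssa-miR-221-3p was 4.85-fold below it with 174 CPM (rank 129), and ssa-miR-222b-5p was 17.4-fold lower again with 10.02 CPM (rank 319). Both of these steps were free of overlap. The counts carry no length term, and levels of different miRNAs are compared here as counts of reads from molecules of similar length. Whether library preparation captured the different arms equally was not tested.

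**Figure D1:**
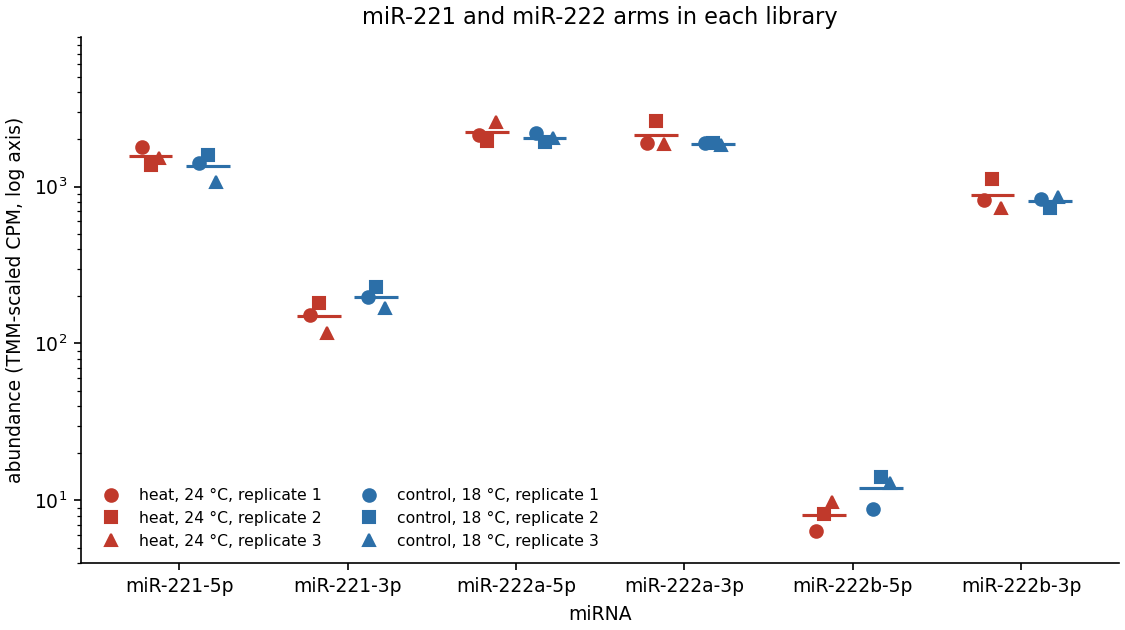
Abundance (TMM-scaled CPM, log axis) of the 6 arms in each library, with heat at the left of control within each arm; symbols are libraries and lines are group means. The arms run from 10.02 CPM for miR-222b-5p to 2137 CPM for miR-222a-5p on average, and heat and control libraries overlap in every arm.

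By their family names the 3p arms carry the shared seed, and miR-222a supplied most of their reads. The sequences of these rows were not seen. Among reads of the 3 3p arms, miR-222a-3p made up 67.2% ± 1.31 in heat libraries and 65.2% ± 1.07 in controls (SD, n = 3 each), and miR-222b-3p 28.0% ± 0.921 and 27.9% ± 2.17. miR-221-3p made up 4.75% ± 0.490 in heat libraries and 6.90% ± 1.102 in controls. Of the reads of the 3 5p arms, miR-222a-5p held 58.5% ± 4.23 at 24 °C and 60.1% ± 5.29 at 18 °C, and miR-221-5p 41.3% ± 4.27 and 39.5% ± 5.29. miR-222b-5p held 0.215% ± 0.0471 at 24 °C and 0.352% ± 0.0945 at 18 °C.

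No arm passed the test between the temperatures. Of the 6, 0 passed edgeR's quasi-likelihood test (edgeR adjusted p from 0.69 to 0.92, Benjamini-Hochberg over 537 rows), against 0.186% of all tested rows (1 of 537, on the higher side, the heart and slow muscle miRNA miR-499a-5p). At an unadjusted p under 0.05 there were also 0 of the 6, against 6.52% of all tested rows. DESeq2 and limma-voom likewise called 0 of the 6. In none of the 6 arms did the heat and control libraries separate fully in TMM-scaled CPM, which they did in 12.8% of all tested rows. Of the 6 estimates 4 were positive and 2 negative, with a median log2 fold change of 0.13, beside a median of 0.0020 over all tested rows. These are bulk libraries, in which fewer cells of a type and less RNA per cell cannot be told apart.

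In the main fit the estimates nonetheless bound the size of any difference for most arms. The 95% interval of the fold change lay within 2-fold in either direction for 5 of the 6 arms, and for 169 of all 537 tested rows (31.5%). The exception was the rare miR-222b-5p. For miR-221-3p the lower limit, a log2 fold change of -0.99, almost reached 2-fold. Its estimate was lower with upper quartile scaling (-0.48 ± 0.27, SE) and without heat replicate 2 (-0.58 ± 0.27). Whether this arm is bounded within 2-fold therefore depends on the fit.

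**Figure D2:**
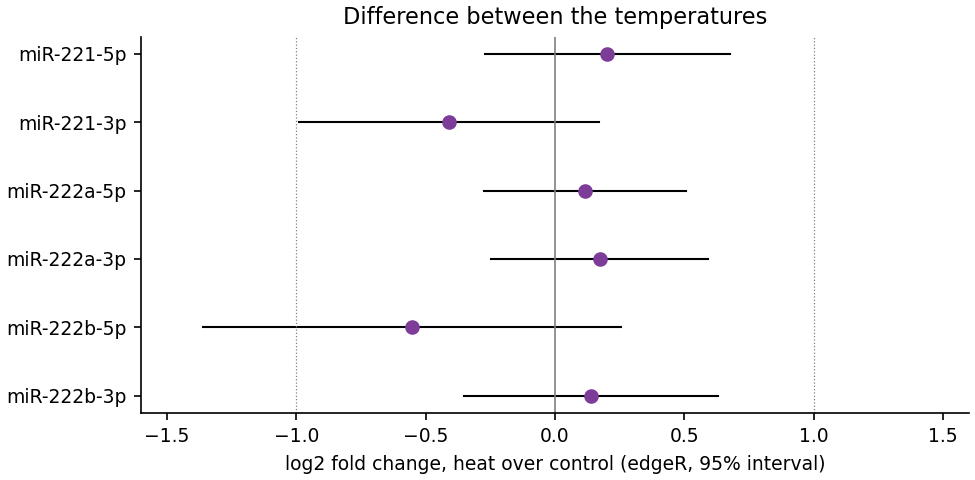
Log2 fold change of each arm, heat over control, with its 95% interval from edgeR (3 heat and 3 control libraries); dotted lines mark 2-fold in either direction. All intervals include 0, and only that of miR-222b-5p reaches past a dotted line. The interval of miR-221-3p ends just inside the lower line, at -0.99.

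miR-222a-3p, the main carrier of the shared seed, had 1897, 2596 and 1857 CPM in the heat libraries, against 1903, 1889 and 1841 CPM in the control libraries. Heat replicate 2 stood above the other 5 libraries, which lay close together. Its log2 fold change of 0.17 ± 0.18 (SE) had a 95% interval of -0.25 to 0.59 and did not pass (edgeR adjusted p = 0.85), and it was -0.011 without heat replicate 2. Its copy miR-222b-3p had 816, 1114 and 729 CPM at 24 °C, against 831, 728 and 855 CPM at 18 °C. Heat replicate 2 was again the highest library. The log2 fold change was 0.14 ± 0.21 (95% interval -0.35 to 0.63; edgeR adjusted p = 0.92), with -0.073 without heat replicate 2 and -0.0050 without control replicate 2.

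miR-221-3p, which has the same seed, had 151, 180.2 and 117 CPM in the heat libraries, against 197, 230.0 and 169 CPM in the control libraries. The highest heat library, replicate 2, exceeded the lowest control library, replicate 3, and the other 2 heat libraries lay below all controls. In the deposited TPM, which are scaled by library total alone, the same pair stood at 169.8 and 170.2, so that the groups just failed to overlap. The log2 fold change was -0.41 ± 0.25 (95% interval -0.99 to 0.17; edgeR adjusted p = 0.69). It was -0.30 without heat replicate 3, the library with the lowest value. That library also had the highest sums of the muscle rows and of the 2 miR-144 arms. The part of muscle or red cells in this value was not tested.

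The 5p arms have seeds of their own, and none of them separated the groups. miR-222a-5p had 2145, 1939.8 and 2583 CPM at 24 °C, against 2198, 1919.7 and 2039 CPM at 18 °C, with heat replicate 3 the highest. Its log2 fold change was 0.11 ± 0.17 (95% interval -0.28 to 0.51; edgeR adjusted p = 0.92), -0.058 without heat replicate 3 and -0.0018 without control replicate 2. miR-221-5p had 1795, 1377 and 1519.6 CPM at 24 °C, against 1421, 1580.2 and 1076 CPM at 18 °C. Control replicate 3 was the lowest library and heat replicate 1 the highest, and the groups overlapped. The log2 fold change was 0.20 ± 0.20 (95% interval -0.27 to 0.68; edgeR adjusted p = 0.84), with 0.041 without control replicate 3 and 0.086 without heat replicate 1. miR-222b-5p, with 33 to 44 counts in the heat libraries and 45 to 62 in the control libraries, stood at 6.37, 8.23 and 9.75 CPM in the heat libraries and at 8.83, 13.99 and 12.97 CPM in the controls. Its log2 fold change of -0.55 ± 0.34 had the widest interval of the 6 (95% interval -1.36 to 0.26; edgeR adjusted p = 0.71), at a depth where 3 counts were worth 0.582 to 0.799 CPM. Without heat replicate 3 the log2 fold change was -0.75.

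A hairpin yields a 5p and a 3p arm, of which usually one is loaded into the silencing complex and kept. The 3 hairpins differed widely in this balance. miR-221 gave mostly its 5p arm, which made up 91.2% ± 2.39 of its reads in heat libraries and 87.2% ± 0.698 in controls (SD, n = 3 each). miR-222a gave both arms in near equal amounts, with 51.3% ± 7.85 and 52.2% ± 1.63 from the 5p arm. The reads counted for miR-222b were almost only of its 3p arm, with 0.943% ± 0.328 and 1.48% ± 0.417 from the 5p arm. Reads that match both copies may be counted in either row. The part of the counting in the balances of miR-222a and miR-222b was not tested. Among the 79 hairpins with a mean of at least 10 counts in each arm, miR-221 ranked 38, miR-222a ranked 51 and miR-222b ranked 71 from the most 5p-biased to the most 3p-biased, and 51 of the 79 had more 5p than 3p reads on average.

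**Figure D3:**
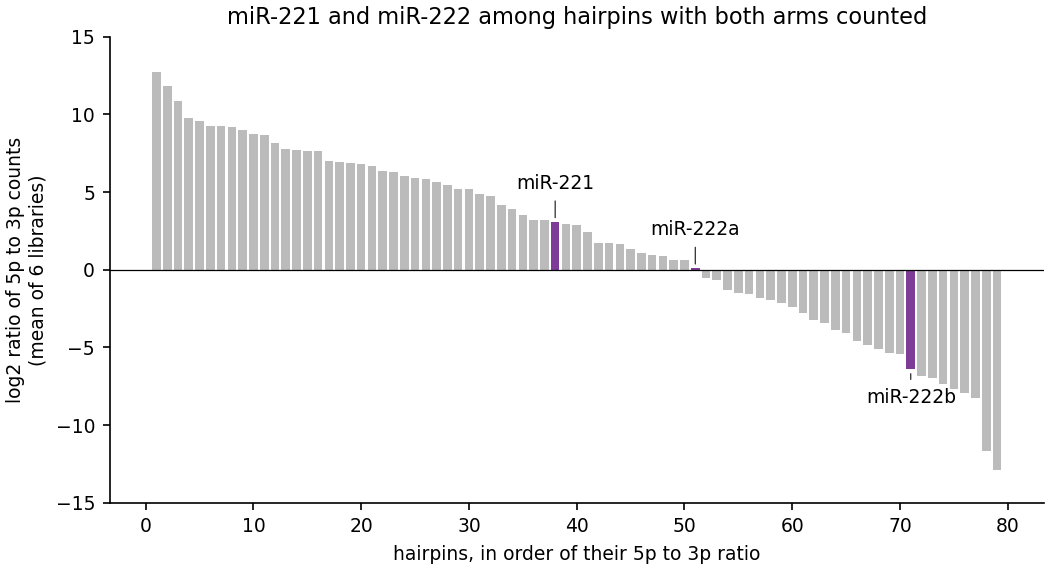
Mean log2 ratio of 5p to 3p counts over the 6 libraries for the 79 hairpins with both arms counted, in descending order; values above 0 mean more 5p reads. miR-221 (3.08) lies on the 5p side, miR-222a (0.10) is the last hairpin above 0, and miR-222b (-6.42) lies far on the 3p side.

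The arm balance of miR-221 leaned further to the 5p arm in the heat libraries. There were 11.8, 7.64 and 12.98 reads of miR-221-5p for each read of miR-221-3p at 24 °C, against 7.20, 6.87 and 6.37 at 18 °C. Every heat library lay above every control library, with heat replicate 2 close to the controls, whereas the ratio was nearly constant among controls. On the log2 scale the ratio averaged 3.40 ± 0.41 in heat libraries and 2.77 ± 0.090 in controls (SD, n = 3 each). The difference of 0.63 ± 0.28 (SE; 95% interval -0.0025 to 1.27) did not pass (limma adjusted p = 0.50 over 79 hairpins, unadjusted p = 0.051). It was the eighth smallest p of the 79. No hairpin of the 79 passed (0%), 8.86% had an unadjusted p under 0.05, and 11.4% had heat and control libraries that did not overlap, as 1 of these 3 hairpins did. Without heat replicate 3 the difference was 0.48, and without heat replicate 2 it was 0.87.

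The other 2 hairpins showed no such separation. miR-222a had 1.13, 0.747 and 1.39 reads of its 5p arm per read of its 3p arm at 24 °C, against 1.16, 1.02 and 1.11 at 18 °C. The heat libraries lay on both sides of the controls, and the difference in log2 ratio was -0.049 ± 0.29 (95% interval -0.71 to 0.61; limma adjusted p = 0.96). It turned to 0.20 without heat replicate 2 and was -0.25 without heat replicate 3. miR-222b had 128, 135 and 74.7 reads of its 3p arm per read of its 5p arm at 24 °C, against 94.1, 52.0 and 66.0 at 18 °C. The difference in its log2 ratio of 5p to 3p was -0.66 ± 0.34 (95% interval -1.44 to 0.11; limma adjusted p = 0.53), with overlapping groups. Without heat replicate 3 this difference was -0.93.

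**Figure D4:**
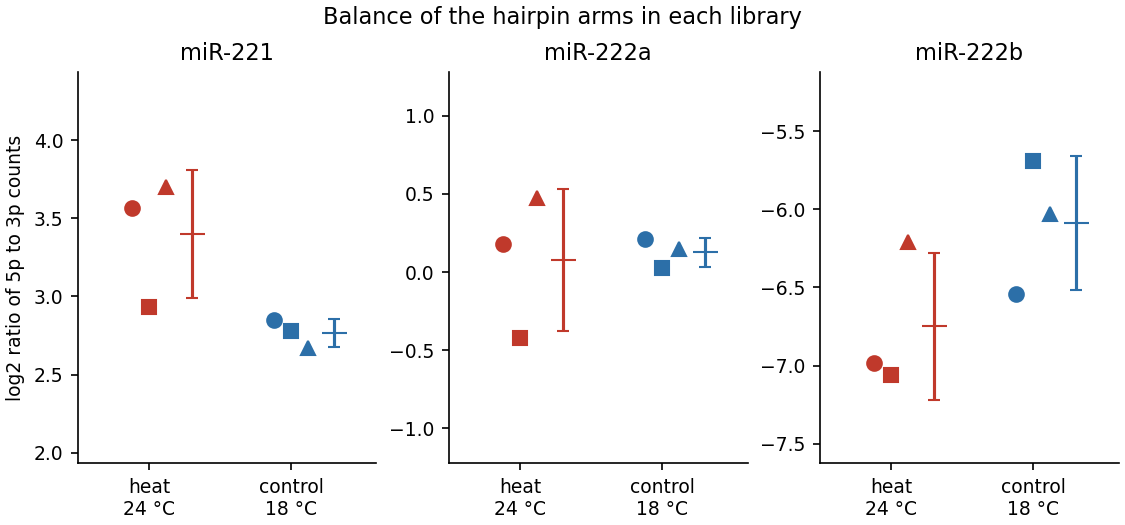
Log2 ratio of 5p to 3p counts of each hairpin, heat at the left and control at the right of each panel; circles, squares and triangles are replicates 1, 2 and 3, and bars are the mean with SD (n = 3 each). The panels cover the same span on axes that start at different values, and only in miR-221 do all heat libraries lie above all control libraries.

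A comparison within each library sets miR-221 against miR-222a directly and needs no scaling between libraries; it was chosen after the values of both hairpins were seen. The log2 ratio of arms of miR-221 exceeded that of miR-222a by 3.39, 3.35 and 3.22 in the heat libraries, against 2.64, 2.76 and 2.52 in the control libraries. The difference between temperatures was 0.68, with SDs of 0.088 at 24 °C and 0.12 at 18 °C, and the groups did not overlap (two-sided exact permutation p = 0.1, the lowest value this test can give for 3 against 3). The groups were also apart in 14.2% of the 3081 pairs of the 79 hairpins compared in this way, so the separation alone does not set this pair apart. Leaving out any one library kept it between 0.62 and 0.74.

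The ratios between the copies were compared in the same way, for 4 pairs, of which all but the first pair were added after the values were seen. There were 0.186, 0.162 and 0.161 reads of miR-221-3p per read of miR-222b-3p at 24 °C, against 0.238, 0.316 and 0.198 at 18 °C. All heat libraries lay below all controls, and ratios of 2 tested rows were this fully apart, in either direction, in 13.2% of all 143916 pairs. On the log2 scale this was -2.56 ± 0.12 in heat libraries and -2.02 ± 0.34 in controls, a difference of -0.54 (two-sided exact permutation p = 0.1, or 0.2 with Benjamini-Hochberg adjustment over the 4 ratios, n = 3 each). It was -0.36 without control replicate 2, the library farthest from the heat libraries. Against miR-222a-3p, miR-221-3p stood at 0.0798, 0.0694 and 0.0630 reads per read at 24 °C, against 0.104, 0.122 and 0.0918 at 18 °C. The groups were apart, and the log2 difference was -0.58 (exact permutation p = 0.1, adjusted 0.2). This ratio shares its numerator with the first, so it is not a separate instance. Nor is the comparison above of the ratios of arms of miR-221 and miR-222a. Its difference of 0.682 equals that of miR-221-5p to miR-222a-5p (0.105) less that of these 3p arms (-0.577). The ratio of arms of miR-221 also has miR-221-3p as its denominator. The exact permutation test cannot go below 0.1 with 3 against 3, and no other test was made on the ratios between copies.

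The 2 copies of miR-222 kept a nearly fixed ratio in their 3p arms. There were 2.33, 2.33 and 2.55 reads of miR-222a-3p per read of miR-222b-3p at 24 °C, against 2.29, 2.59 and 2.15 at 18 °C. The log2 ratio had an SD of 0.10 over the 6 libraries. The log2 CPM of the 2 arms on their own had SDs of 0.19 and 0.22. Heat replicate 2 was the highest library of both arms (2596 and 1114 CPM). Elsewhere miR-222a-3p lay between 1841 and 1903 CPM and miR-222b-3p between 728 and 855 CPM. Among those libraries control replicate 3 was the lowest for miR-222a-3p and the highest for miR-222b-3p. A shared movement was thus seen only through heat replicate 2. The difference between temperatures was 0.037 (exact permutation p = 0.7), with its sign turning without control replicate 3 or heat replicate 3. Since reads that match both copies may be counted in either row, the part of the counting in this fixed ratio was not tested. The ratio of miR-221-5p to miR-222a-5p was more variable, at 0.837, 0.710 and 0.588 at 24 °C and 0.647, 0.823 and 0.528 at 18 °C, with a log2 difference of 0.11 (exact permutation p = 0.7) that turned without control replicate 3 or heat replicate 1.

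Likeness of pattern was measured as the root mean square difference of log2 abundance over the 6 libraries, after each row's mean was subtracted, among 219 other annotated rows with a mean of at least 10 CPM. For miR-222a-3p the closest were miR-128-3p (0.093), miR-29b-2-5p (0.11) and the abundant miR-21b-5p (0.12), where the median row differed by 0.34. miR-222b-3p lay as close as these, at 0.092. The pattern of miR-222a-3p was mainly its high value in heat replicate 2. For miR-222a-5p the closest were miR-16b-3p (0.065), miR-462a-3p (0.097) and miR-462a-5p (0.10), where the median row differed by 0.32. The 2 arms of miR-222a differed from each other by 0.27, and those of miR-221 by 0.40. The closest rows lie below the median by selection, and how close such rows lie for other miRNAs was not worked out.

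miRNAs linked to the same targets or cells were counted as lists, by family number. Over all tested rows 1 of 537 passed (0.186%), so a count of 0 is the usual one for lists of these sizes. In the list of families reported to act on KIT in human cells (miR-34, miR-137, miR-193, miR-218 and miR-494), 0 of 3 tested rows passed, with a median log2 fold change of -0.11. Its most abundant row, miR-218-5p, had 293 ± 110.4 CPM in heat libraries and 328 ± 172 CPM in controls, and miR-193-3p had 36.2 ± 15.8 and 39.0 ± 7.13 CPM (SD, n = 3 each). In the list of families reported to act on CDKN1B (miR-24, miR-148, miR-152, miR-181 and miR-196), 0 of 19 passed, with 9 estimates positive and 10 negative and a median of -0.026. There miR-181a-5p, known from developing lymphocytes, had 33838 ± 5025 CPM in heat libraries and 34895 ± 7004 CPM in controls, and miR-181c-5p 9277 ± 1002 and 8693 ± 1028 CPM.

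Of 34 tested rows of vessel-linked families, 0 passed (against 0.186% of all tested rows), with 17 estimates on each side and a median log2 fold change of 0.019. The endothelial miR-126-3p had 94334 ± 7675 CPM in heat libraries and 88932 ± 13544 CPM in controls, and miR-92a-3p, of the miR-17/92 cluster, 24279 ± 5687 and 19553 ± 6604 CPM. Among leukocyte families 0 of 6 passed (median 0.25), and the estimates of the blood cell miRNAs miR-142a-5p and miR-142b-3p were 0.42 ± 0.37 and -0.14 ± 0.23 (log2, SE). Of the red cell families only miR-144 had rows, and of its 2 arms 0 passed. The 5p arm averaged 1656 ± 1316 CPM in heat libraries and 549 ± 264 CPM in controls, with an estimate of 1.59 ± 0.70, and the 3p arm averaged 31.0 ± 11.7 and 29.2 ± 10.4 CPM. The red cell sum ran from 405 to 3052 CPM in heat libraries and from 383 to 869.9 CPM in controls, and the part of red cells in the values of miR-221 and miR-222 was not tested.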

How the data were processed

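Small RNA libraries were prepared from TRIzol-extracted head kidney RNA with an NEBNext small RNA kit, per the labels' protocols. The authors deposited whole-number read counts per miRNA and, per the file headers, TPM; each deposited TPM value equals the count over its library total (largest difference 2.33e-10), so TPM were not tested. The submitters' processing notes name Bowtie; the genome build, the length filter and the rule for reads with several matches were not given in the sources used here. Rows carry a name only, so no sequence or position is printed, and seeds are those known for the families.

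Groups follow the titles and the design text, and p-values measure the spread between fish. All pairs of libraries differed beyond sampling noise (chi-square over its degrees of freedom 117 to 344). edgeR 4.0.16 in R 4.3.3 was run on all rows: filterByExpr (minimum count 10, total 15) left 537, with TMM scaling and a robust quasi-likelihood fit, and Benjamini-Hochberg adjustment at 0.05. SEs are the log2 fold change over the root of F. Ratios of arms were tested with limma 3.58.1 on log2 counts with 0.5 added. Differences of ratios between copies used exact permutation, with a paired sign-flip test as an alternative. The edgeR fit and the limma fit of arm ratios were first tested on simulated data. DESeq2 1.42.0, other scalings, filters, a replicate block and left-out libraries were alternatives. Figures were drawn with matplotlib 3.10.9.

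The members, lists and tests were chosen with earlier results of these data known. The design named 4 members, but the naming rule gives 6, and the ratios that involve miR-222a were added once its rows were seen. Named rows other than members are the 3 most alike for each of the 2 most abundant members, the 2 most abundant of each list and any that passed.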

Additional observations from a re-analysis of the deposited data

How the results depend on the processing

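None of the 6 arms passed in any of 16 alternatives (other scalings, DESeq2, limma-voom, a fit that was not robust, other filters, annotated rows only, a replicate block, each library left out). The filter at a mean of 50 counts removed miR-222b-5p and gave no value for it. The log2 fold change of miR-221-3p ran from -0.58 to -0.30, that of miR-221-5p from 0.041 to 0.27 and that of miR-222b-5p from -0.75 to -0.41. Without a library, miR-222a-5p ran from -0.058 to 0.19 (also -0.0018 without control replicate 2), miR-222a-3p from -0.011 to 0.23 and miR-222b-3p from -0.073 to 0.21 (also -0.0050). The signs of these 3 turned only there. The arm ratio difference ran from 0.48 to 0.87 for miR-221, from -0.25 to 0.20 for miR-222a and from -0.93 to -0.46 for miR-222b. The ratio of miR-221-3p ran from -0.70 to -0.36 against miR-222b-3p and from -0.67 to -0.47 against miR-222a-3p. That of miR-222a-3p to miR-222b-3p ran from -0.023 to 0.11 (-0.0062 without heat replicate 3), and that of miR-221-5p to miR-222a-5p from -0.051 to 0.27 (-0.019 without heat replicate 1). Leaving out a library, the difference in the share of counts lay between 0.0485 and 0.0767 percentage points. Over all rows, 1 was called higher, but 2 by DESeq2, 0 under the replicate block and 0 to 1 with a library left out. Rows called lower numbered 0, but 3 by DESeq2 and 0 to 1 without a library. Hairpins whose arm ratio passed numbered 0, but 2 of other families with at least 50 counts per arm. The cause was not tested. With the replicate block the log2 fold change of miR-221-3p was -0.42 (edgeR adjusted p = 0.90), and 0 arms passed. Fish with equal numbers showed no shared deviation (correlations -0.057, -0.19 and -0.15), and 0 libraries lay closest to their own number. Depth limits miR-222b-5p most, with at most 62 counts per library.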
